A study of Mus musculus with 22 samples.

Results

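The 10 genes described here are grouped as platelet granule and receptor genes, and were followed over haematopoietic stem and progenitor populations of mouse bone marrow. They were chosen by name, with earlier results of these data known, so their shares beside those of all genes are descriptions. Every probe annotated to Pf4, Treml1, Clec1b, Mmrn1, Plek, Cd9, Selp, F2r, Ltbp1 or Gp6 was taken. This gave 18 of the 45281 probes on the array and 10 of the 19057 genes with a probe of their own. RNA came from C57BL/6 mice aged 8 weeks, all with the GATA1-GFP transgene, which marks cells that express the transcription factor GATA1 by fluorescence, and was hybridised to 22 Illumina bead arrays. GATA1+LSK (4 arrays) is the reporter-positive part of the LSK fraction, in which stem cells and the earliest progenitors are found. It was set against CMP (common myeloid progenitors, 4 arrays), LT-HSC (long-term haematopoietic stem cells, 6 arrays), GATA1-LSK (the reporter-negative part of LSK, 4 arrays) and LMPP (lymphoid-primed multipotent progenitors, 4 arrays). No untreated or transgene-free group was used here, so every population shares the reporter, and the regulatory sequence that drives it is not given in the sources used here.

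Platelets are shed by megakaryocytes, which pack secreted proteins into alpha granules and place adhesion and activation receptors on their surface. On activation the granules fuse with the plasma membrane, their cargo is released, and proteins of the granule membrane appear at the surface. Many of these genes are transcribed well before a megakaryocyte is recognisable, and some are also known from stem cells. Among the genes followed, Pf4, Mmrn1 and Ltbp1 encode secreted or stored proteins, Selp, Treml1 and Cd9 encode membrane proteins found in granules or at the surface, F2r, Clec1b and Gp6 encode activation receptors, and Plek encodes an intracellular substrate of protein kinase C.

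Between 12264 and 19015 probes were detected per array, where detected means a detection p under 0.05 against the negative control beads. Values are log2 signals after background correction and quantile normalisation, and the lowest signal called detected lay between 4.69 and 5.55 on the arrays. A gene was tested if one of its probes was detected on at least 4 arrays, which held for 11118 genes and for 8 of the 10 members. Precision is limited by how many arrays there were. Whether replicates are different mice is not stated in the labels, and p-values then measure only the spread among arrays, which may be technical. In RNA of a sorted population, fewer cells of a kind and less RNA per cell cannot be told apart.

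The sort was checked against marker transcripts. Gata1 itself averaged 7.19 ± 0.68 (SD, n = 4) in GATA1+LSK, 6.62 ± 0.20 (n = 4) in CMP, 5.03 ± 0.37 (n = 6) in LT-HSC, 5.72 ± 0.36 (n = 4) in GATA1-LSK and 4.77 ± 0.21 (n = 4) in LMPP. Dntt, a lymphoid gene, lay between 8.55 and 9.42 on the LMPP arrays. Flt3, another LMPP marker, lay near the lowest detected signals there (4.72 to 5.34), and the GATA1-LSK array on slide 3 had 5.11. Mpo, a CMP marker, lay between 13.7 and 14 in CMP but also between 13.1 and 13.8 in GATA1-LSK and between 13.2 and 13.3 in LMPP. Ly6a had no probe under that name. Kit was detected on all arrays, and at 11.3 to 12.6 in CMP it did not separate them from LSK populations. The LSK gate was therefore not checked by these transcripts. The LT-HSC arrays stood apart from each other: replicates 1 and 2 were on slide 2, and replicates 3 to 6 were on slide 3. In replicates 3 to 6 S100a8, a gene of neutrophils, lay between 6.39 and 11.4 and Slamf1, a stem cell marker, between 4.35 and 5.40. In replicates 1 and 2 S100a8 was not detected and Slamf1 lay at 6.89 and 6.91. The CMP markers Mpo and Elane differed as well. In replicates 3 to 6 Mpo lay between 10.8 and 13.6 and Elane between 6.04 and 11.5. In replicates 1 and 2 Mpo lay at 7.45 and 7.57 and Elane at 5.23 and 5.49. The 4 tested LT-HSC markers, Slamf1 among them, summed to 506 to 830 (linear signal) on all LT-HSC arrays and to at most 442 elsewhere. Because S100a8, Slamf1, Mpo and Elane differed, differences from LT-HSC are also given without replicates 3 to 6. Those fits use the remaining 2 LT-HSC arrays, both on slide 2, so a changed difference cannot be told apart from a slide effect. Pf4, Plek and Selp lay above their population mean on 0 of the 6 arrays of slide 2.

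GATA1+LSK had the highest mean of all 5 populations for Pf4, Treml1, Plek, Cd9 and F2r, whereas LT-HSC had the highest mean for Mmrn1 and GATA1-LSK for Selp. Of these genes, Plek and Selp did not pass limma's moderated F test for any difference among the populations (adjusted p = 0.223 and 0.187). The Selp mean of GATA1-LSK included 1 array at 9.78. By median, Selp lay at 7.39 in GATA1-LSK, below LT-HSC (7.56), GATA1+LSK (7.52) and CMP (7.45). Mmrn1 was not called between LT-HSC and GATA1+LSK. Against LMPP, 5 of the 8 tested members were higher in GATA1+LSK (Pf4, Treml1, Mmrn1, Cd9 and F2r), where 3.71% of all tested genes were called higher and 4.86% lower. Against CMP, 4 members were higher (Treml1, Mmrn1, Cd9 and F2r), with 3.49% of all genes called higher and 3.01% lower; 53.7% of the calls were higher, against 30.6% under median scaling. Against LT-HSC, 4 were higher (Pf4, Treml1, Cd9 and F2r), with 4.16% of all genes called higher and 6.34% lower. Against GATA1-LSK, the other part of the LSK fraction, 2 were higher (Pf4 and Treml1), with 1.08% of all genes called higher and 1.66% lower (305 genes in all, 175 to 363 on leaving out 1 array); 39.3% of the calls were higher, against 73.1% under median scaling. Calls are those of limma's moderated test at an adjusted p under 0.05, Benjamini-Hochberg adjusted over the 11118 genes of each comparison. Treml1 was the only member called higher in GATA1+LSK than in each of the other 4 populations, though with slide as a fixed block Pf4 and Plek were as well. The calls against CMP were all lost under median scaling, where 0 of the 8 members were called by limma. At an unadjusted p under 0.05, 3 were higher and 0 lower there, each of the 4 kept its direction, and the median difference of all genes was shifted by -0.22.

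**Figure D1:**
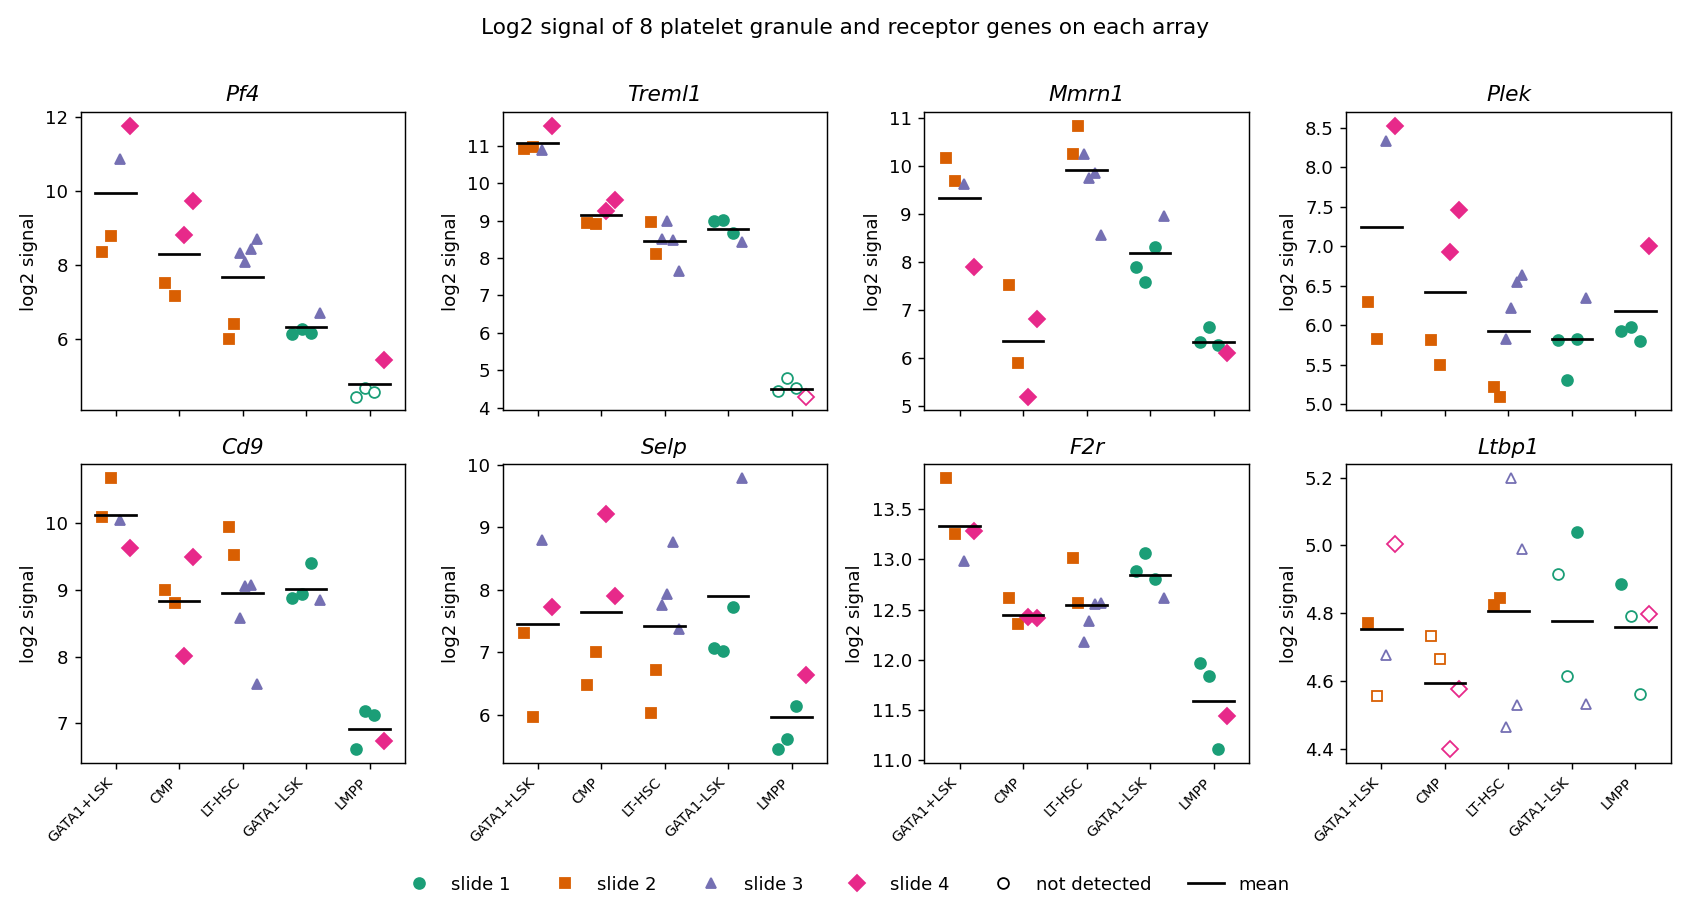
Log2 signal of the 8 tested genes on each of the 22 arrays, by population (horizontal axis); symbol and colour give the slide, open symbols mark arrays on which the probe was not detected, and bars are population means. The 4 GATA1+LSK arrays of Treml1 lie between 10.88 and 11.53, above every other array, while those of Pf4 spread from 8.35 to 11.75.

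**Figure D2:**
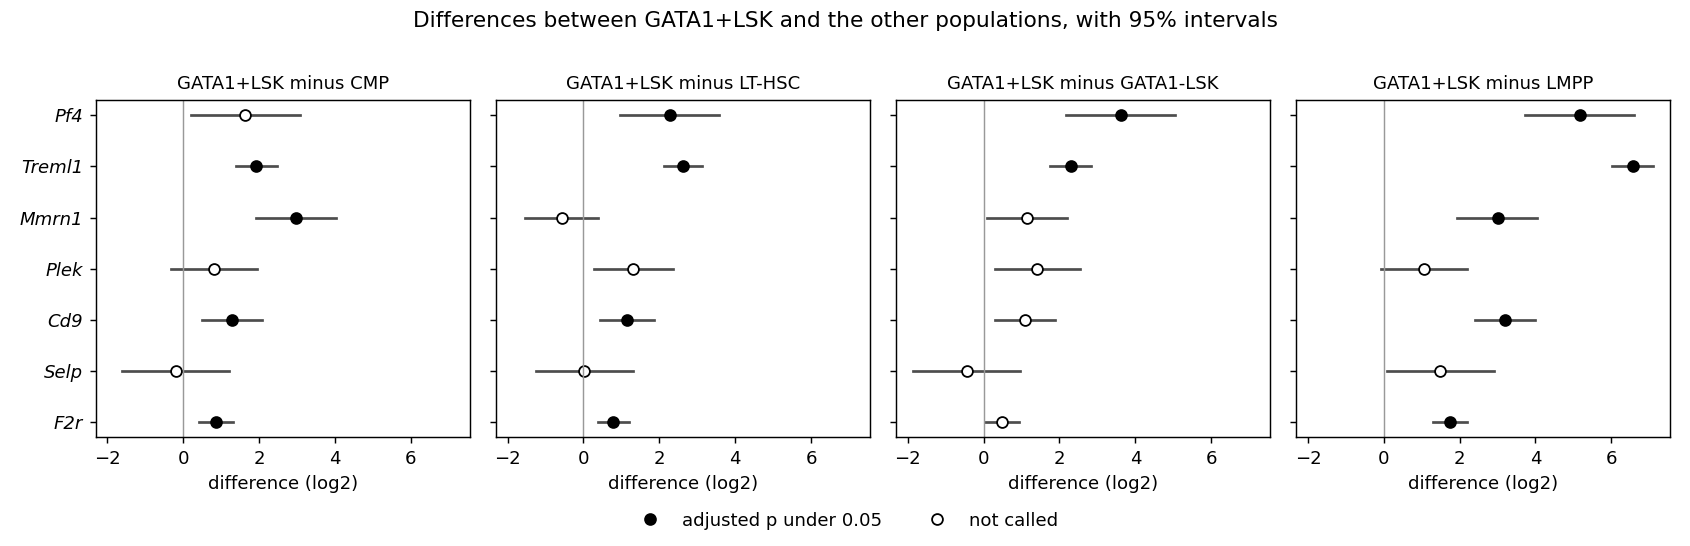
Difference in mean log2 signal between GATA1+LSK and each other population for 7 of the tested genes, leaving out Ltbp1, whose probe was detected on 5 arrays; points are differences, lines are 95% intervals and filled points passed an adjusted p of 0.05. Treml1 is filled in all 4 panels, and Selp in none of them.

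Pf4 encodes platelet factor 4, a chemokine stored in alpha granules and commonly used as a megakaryocyte gene. Its log2 signal was 8.35, 8.78, 10.86 and 11.75 on the GATA1+LSK arrays, 7.50, 7.15, 8.80 and 9.73 on the CMP arrays, 6.14, 6.27, 6.16 and 6.69 on the GATA1-LSK arrays and 4.44, 4.66, 4.58 and 5.42 on the LMPP arrays. The LT-HSC arrays ran from 6.01 over a median of 8.21 to 8.71. All GATA1+LSK arrays lay above all GATA1-LSK and LMPP arrays, but their range overlapped those of CMP and LT-HSC, and Pf4 was detected on 1 of the 4 LMPP arrays. The difference was 3.62 ± 0.69 (SE) against GATA1-LSK, 12.3-fold (adjusted p = 0.00421), 5.16 ± 0.69 against LMPP (adjusted p = 1.6e-05) and 2.27 ± 0.63 against LT-HSC (adjusted p = 0.0213). It was 1.63 ± 0.69 against CMP, which did not pass (adjusted p = 0.203). CMP and LT-HSC were also above LMPP, by 3.52 ± 0.69 and 2.88 ± 0.63 (adjusted p = 0.00211 and 0.00245). Since Pf4 was not detected on 3 of the 4 LMPP arrays, the differences from LMPP rest on values below background: with these raised to the lowest signal called detected on their array they were 4.89 for GATA1+LSK, 3.25 for CMP and 2.61 for LT-HSC.

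The spread of Pf4 within populations went with the slide. With population in the model, slide gave F = 56.6 (adjusted p = 3.76e-07), and 27 of the 11118 genes had a larger value. Within GATA1+LSK the arrays on slide 2 had 8.35 and 8.78, that on slide 3 had 10.86 and that on slide 4 had 11.75. The CMP arrays had 7.50 and 7.15 on slide 2 and 8.80 and 9.73 on slide 4, and the LT-HSC arrays had 6.01 and 6.40 on slide 2 and 8.08 to 8.71 on slide 3. GATA1+LSK exceeded CMP by 1.24 on slide 2 and 2.48 on slide 4, LT-HSC by 2.36 on slide 2 and 2.47 on slide 3, GATA1-LSK by 4.17 on slide 3 (1 array each) and LMPP by 6.33 on slide 4 (1 array each). With slide as a fixed block the difference from CMP was 1.72 and passed (adjusted p = 5.54e-05), and with the replicate number as a block it was 1.63 (adjusted p = 0.0158); over 22 alternatives this p ran from 5.54e-05 to 0.562. Against LT-HSC the difference was 3.73 without LT-HSC replicates 3 to 6 (adjusted p = 0.00285). That fit left LT-HSC on slide 2 alone, where 0 of 6 arrays lay above their population mean in Pf4. Slide and the choice of arrays cannot be told apart in it. With all arrays and slide as a fixed block the difference from LT-HSC was 2.55. Without GATA1+LSK replicate 3 or 4 the call against LT-HSC was lost (highest adjusted p 0.112; 2.67e-07 to 0.119 over 25 alternatives), and without LT-HSC replicates 3 to 6 the difference between LT-HSC and LMPP was 1.43 (adjusted p = 0.211; 1.8e-07 to 0.211).

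The 250 bases before the annotated start of Pf4 are shown because it is the member whose level differed most between both parts of the LSK fraction. They lie at chr5:90772185-90772434 on the plus strand (RefSeq, GRCm38.p6). Promoter sequences were searched on both strands for GATA hexamers, which are printed in capitals wherever they occur. Their letters are AGATAA (or AGATAG, with another last base), and beginning with another base TGATAA (or, likewise, TGATAG). Of all 32851 promoters of this length 26.5% held one, and among the 11 windows of the 10 members (Ltbp1 has 2) 3 did, those of Clec1b, Mmrn1 and Gp6. The Pf4 window holds none of these letters.
Pf4: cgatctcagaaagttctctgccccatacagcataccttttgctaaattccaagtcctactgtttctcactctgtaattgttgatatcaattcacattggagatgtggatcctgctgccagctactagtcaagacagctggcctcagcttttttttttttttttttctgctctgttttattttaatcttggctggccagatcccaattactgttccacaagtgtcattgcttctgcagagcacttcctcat

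Mmrn1 encodes multimerin 1, a large carrier of coagulation factor V in alpha granules. Its order over the populations differed from that of Pf4. The GATA1+LSK arrays had 10.16, 9.68, 9.61 and 7.88, the CMP arrays 7.53, 5.90, 5.19 and 6.82, the GATA1-LSK arrays 7.90, 7.58, 8.31 and 8.96 and the LMPP arrays 6.33, 6.65, 6.27 and 6.11. LT-HSC ran from 8.56 over 10.04 to 10.83. GATA1+LSK and LT-HSC overlapped, and both lay wholly above CMP and LMPP. GATA1+LSK exceeded CMP by 2.98 ± 0.51, 7.87-fold (adjusted p = 0.000462), and LMPP by 3.0 ± 0.51 (adjusted p = 0.000289; 3.33e-05 to 0.0578 over 22 alternatives). It was 1.15 ± 0.51 above GATA1-LSK (adjusted p = 0.287) and -0.58 ± 0.46 relative to LT-HSC (95% interval -1.53 to 0.39), neither of which passed; without LT-HSC replicates 3 to 6 the difference from LT-HSC was -1.2 (adjusted p = 0.19). GATA1+LSK replicate 4, the lowest of its group in Mmrn1, was the only array of the group on slide 4. It had the highest Mpo of the group (13.3, against 10.4 to 11 on the other 3), and also the highest Pf4, Treml1 and Plek. With population in the model, slide did not pass for Mmrn1 (F = 4.11, adjusted p = 0.0553). The part of myeloid cells in the low Mmrn1 of this array was not tested.

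Mmrn1 was also called lower in CMP than in LT-HSC and GATA1-LSK. CMP minus the other population was -3.55 ± 0.46 against LT-HSC (adjusted p = 5.54e-06; -4.18 without LT-HSC replicates 3 to 6, adjusted p = 4.07e-05) and -1.83 ± 0.51 against GATA1-LSK (adjusted p = 0.0264). The call against GATA1-LSK was lost without CMP replicate 2 or 3 or GATA1-LSK replicate 3 or 4 (highest adjusted p 0.091; 0.01 to 0.45 over 22 alternatives). Against LT-HSC, 1 member was lower in CMP, where 11.4% of all genes were lower, and 1 was higher (Treml1), where 10.1% were; 47.2% of those calls were higher, against 63.3% under median scaling. Against GATA1-LSK, 1 was lower, where 5.23% of all genes were; 31.9% of those calls were higher, against 62.6% under median scaling. LT-HSC exceeded GATA1-LSK in Mmrn1 alone (1.72 ± 0.46, adjusted p = 0.0309), where 2.74% of all genes were called higher, 50.3% of the calls, against 66.7% under median scaling. With slide as a fixed block this difference was 0.95 and did not pass (adjusted p = 0.443; 0.00935 to 0.523 over 25 alternatives). It was also lost without LT-HSC replicate 2 or 3 or GATA1-LSK replicate 1, 2 or 3 (highest adjusted p 0.126), and without LT-HSC replicates 3 to 6 it was 2.35 (adjusted p = 0.0173). A second Mmrn1 probe was detected on 0 of the 22 arrays. The window before the start of Mmrn1 (chr6:60944067-60944316, plus strand) is shown because it holds one of the GATA hexamers searched for, TGATAA, which begins 34 bases before the start.
Mmrn1: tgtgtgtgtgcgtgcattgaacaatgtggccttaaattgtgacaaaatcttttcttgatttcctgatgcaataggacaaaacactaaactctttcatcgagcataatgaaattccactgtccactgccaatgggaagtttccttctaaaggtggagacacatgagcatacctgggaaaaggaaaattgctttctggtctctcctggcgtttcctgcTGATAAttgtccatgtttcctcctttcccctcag

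Ltbp1 encodes latent TGF-beta binding protein 1, which holds TGF-beta in its stored form. It had 7 probes, of which 5 were detected on no array, 1 on 3 arrays and 1 on 5 of the 22. The last, which stood for the gene, lay between 4.40 and 5.20 on all arrays and was detected on 1 GATA1+LSK, 0 CMP, 2 LT-HSC, 1 GATA1-LSK and 1 LMPP array. These values lie near the lowest signals called detected, no fold is given, and a difference between populations was not detectable at this signal.

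Treml1 encodes TREM-like transcript 1, a receptor of the alpha granule membrane that reaches the surface of activated platelets. It had the clearest contrast of the set. The GATA1+LSK arrays had 10.92, 10.97, 10.88 and 11.53, the CMP arrays 8.93, 8.90, 9.25 and 9.55, the GATA1-LSK arrays 8.98, 9.02, 8.68 and 8.43, and the LT-HSC arrays 7.65 to 8.995 with a median of 8.49. The probe was not detected on any of the 4 LMPP arrays, where it lay between 4.29 and 4.79. All GATA1+LSK arrays thus lay above all others, and CMP, LT-HSC and GATA1-LSK overlapped each other. The difference was 1.92 ± 0.26 against CMP (3.78-fold, adjusted p = 3.39e-05), 2.63 ± 0.24 against LT-HSC (6.17-fold, adjusted p = 1.14e-07) and 2.30 ± 0.26 against GATA1-LSK (4.92-fold, adjusted p = 1.24e-05).

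Against LMPP, where only a bound can be given, the GATA1+LSK level of Treml1 was at least 71.5-fold higher (adjusted p = 2.65e-13). The bound sets the mean of the brighter population against the lowest signal called detected on each LMPP array, or the probe's own where higher, averaged over the arrays. On the same basis it was at least 18.9-fold higher in CMP, 11.6-fold in LT-HSC and 14.5-fold in GATA1-LSK than in LMPP (adjusted p = 1.51e-10, 1.04e-10 and 4.98e-10). Without LT-HSC replicates 3 to 6, GATA1+LSK was 2.54 above LT-HSC (adjusted p = 6.1e-06). CMP was above LT-HSC by 0.71 ± 0.24 (adjusted p = 0.0365), a call that was lost with the replicate block (0.52, adjusted p = 0.133), without LT-HSC replicates 3 to 6 (0.62, adjusted p = 0.134) and with slide as a fixed block (0.44, adjusted p = 0.267; 0.0174 to 0.267 over 25 alternatives). It was also lost without CMP replicate 3 or 4 or LT-HSC replicate 2, 3, 5 or 6 (highest adjusted p 0.132). Slide did not pass for Treml1 (F = 2.13, adjusted p = 0.22). Within slides GATA1+LSK exceeded CMP by 2.03 on slide 2 and 2.13 on slide 4, LT-HSC by 2.41 and 2.48 on slides 2 and 3, and GATA1-LSK by 2.45 on slide 3. The Treml1 window (chr17:48359666-48359915, plus strand), shown as that of the member called against all 4 populations, held no GATA hexamer.
Treml1: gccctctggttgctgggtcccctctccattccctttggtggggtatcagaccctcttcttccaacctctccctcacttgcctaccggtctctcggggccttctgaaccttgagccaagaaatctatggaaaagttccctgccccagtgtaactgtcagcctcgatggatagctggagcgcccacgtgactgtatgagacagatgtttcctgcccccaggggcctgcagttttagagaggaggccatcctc

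Cd9 encodes a tetraspanin of the platelet surface and granule membrane. Its log2 signal was 10.08, 10.67, 10.04 and 9.63 on the GATA1+LSK arrays, 9.0, 8.81, 8.01 and 9.49 on the CMP arrays, 8.88, 8.93, 9.40 and 8.85 on the GATA1-LSK arrays and 6.62, 7.18, 7.13 and 6.74 on the LMPP arrays. LT-HSC ran from 7.58 over 9.06 to 9.94. LMPP lay below every array of the other populations, and GATA1+LSK lay above CMP and GATA1-LSK but overlapped LT-HSC. GATA1+LSK exceeded LMPP by 3.19 ± 0.38, 9.13-fold (adjusted p = 3.19e-06), CMP by 1.28 ± 0.38 (adjusted p = 0.0445) and LT-HSC by 1.15 ± 0.35 (adjusted p = 0.0346). Against GATA1-LSK the difference was 1.09 ± 0.38 and did not pass (adjusted p = 0.148). CMP, LT-HSC and GATA1-LSK were each above LMPP, by 1.91 ± 0.38, 2.04 ± 0.35 and 2.10 ± 0.38 (adjusted p = 0.00239, 0.000198 and 0.0011).

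The smaller Cd9 differences lay near the threshold. On leaving out 1 array the difference from CMP stayed between 1.01 and 1.5 and that from LT-HSC between 0.875 and 1.35. The call against CMP was lost on leaving out any of 6 of the 8 arrays (GATA1+LSK replicate 1, 2 or 3, or CMP replicate 1, 2 or 3; highest adjusted p 0.152; 0.0109 to 0.695 over 22 alternatives). That against LT-HSC was lost without GATA1+LSK replicate 1, 2 or 3 or LT-HSC replicate 3 or 6 (highest adjusted p 0.129), with the replicate block (0.84, adjusted p = 0.093) and with slide as a fixed block (0.95, adjusted p = 0.0616). Without LT-HSC replicates 3 to 6 it was 0.38 (adjusted p = 0.512; 0.00969 to 0.557 over 25 alternatives). The Cd9 window lies at chr6:125494761-125495010 on the minus strand and, like that of F2r, is shown because both genes, like Treml1, had their highest mean in GATA1+LSK and their lowest in LMPP; it held no GATA hexamer.
Cd9: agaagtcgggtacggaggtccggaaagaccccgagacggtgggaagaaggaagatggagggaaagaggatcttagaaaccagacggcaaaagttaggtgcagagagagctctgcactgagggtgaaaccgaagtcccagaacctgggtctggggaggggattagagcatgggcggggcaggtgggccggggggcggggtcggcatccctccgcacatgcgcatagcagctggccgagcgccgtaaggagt

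Selp encodes P-selectin, the adhesion receptor that moves from the alpha granule membrane to the surface of activated platelets. The GATA1+LSK arrays had 7.31, 5.97, 8.79 and 7.73, the CMP arrays 6.48, 7.0, 9.21 and 7.89, the GATA1-LSK arrays 7.06, 7.02, 7.72 and 9.78 and the LMPP arrays 5.45, 5.62, 6.13 and 6.63. LT-HSC ran from 6.03 over 7.56 to 8.77. The populations overlapped, with the exception of GATA1-LSK, all of whose arrays exceeded all of those of LMPP. No comparison passed for Selp (adjusted p = 0.187 for any difference among the 5 populations), the difference from LT-HSC was 0.02 (1.08 without LT-HSC replicates 3 to 6, adjusted p = 0.409), and the 95% interval of GATA1+LSK minus GATA1-LSK ran from -1.86 to 0.96. With the replicate block, Selp was higher in CMP than in LMPP (adjusted p = 0.0157; 0.0157 to 0.405 over 22 alternatives). With slide as a fixed block it was higher in GATA1-LSK than in LMPP (1.76, adjusted p = 0.00567; 0.00567 to 0.554). Its spread went with the slide (F = 17.8, adjusted p = 0.000145), as the highest array of GATA1+LSK, LT-HSC and GATA1-LSK was on slide 3 in each case.

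F2r encodes PAR1, a thrombin receptor that is cleaved by its ligand. In mouse platelets the related receptors F2rl2 and F2rl3 serve as thrombin receptors, whereas F2r is known from many cells other than platelets. Its log2 signal was 13.81, 13.25, 12.98 and 13.28 on the GATA1+LSK arrays, 12.61, 12.36, 12.43 and 12.42 on the CMP arrays, 12.88, 13.06, 12.80 and 12.61 on the GATA1-LSK arrays and 11.97, 11.84, 11.11 and 11.44 on the LMPP arrays. LT-HSC ran from 12.18 over 12.56 to 13.01. GATA1+LSK lay above CMP and LMPP on every array and overlapped GATA1-LSK and LT-HSC. The difference was 0.87 ± 0.22 against CMP (1.83-fold, adjusted p = 0.0137), 0.78 ± 0.20 against LT-HSC (adjusted p = 0.0109) and 1.74 ± 0.22 against LMPP (3.34-fold, adjusted p = 5.52e-06). Against GATA1-LSK it was 0.49 ± 0.22 and did not pass (adjusted p = 0.285, interval 0.04 to 0.94).

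F2r was also higher than in LMPP in CMP, LT-HSC and GATA1-LSK, by 0.87 ± 0.22, 0.96 ± 0.20 and 1.25 ± 0.22 (adjusted p = 0.0156, 0.00139 and 0.000677). The call of CMP against LMPP was lost with slide as a fixed block (0.89, adjusted p = 0.07; 0.00353 to 0.159 over 22 alternatives) and without CMP replicate 1 or LMPP replicate 3 (highest adjusted p 0.0829). Without GATA1+LSK replicate 1 the calls against CMP and LT-HSC were lost (adjusted p = 0.0575 and 0.0597; 0.00238 to 0.623 and 0.00462 to 0.193 over the alternatives), and without LT-HSC replicates 3 to 6 the difference from LT-HSC was 0.53 (adjusted p = 0.193). The F2r window (chr13:95618467-95618716, minus strand) held no GATA hexamer.
F2r: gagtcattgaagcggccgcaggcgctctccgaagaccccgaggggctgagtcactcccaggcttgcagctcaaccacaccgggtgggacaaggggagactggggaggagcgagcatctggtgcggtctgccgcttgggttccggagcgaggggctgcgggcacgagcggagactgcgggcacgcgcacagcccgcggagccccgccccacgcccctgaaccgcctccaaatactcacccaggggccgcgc

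Against LMPP, the members called higher numbered 4 for CMP (Pf4, Treml1, Cd9 and F2r; 2.27% of all genes), 5 for LT-HSC (those 4 and Mmrn1; 7.90% of all genes) and 4 for GATA1-LSK (Treml1, Mmrn1, Cd9 and F2r; 2.15% of all genes). Under median scaling 41.5% of the calls of GATA1-LSK against LMPP and 53.0% of those of CMP were higher, against 61.6% and 38.5% without it. The Mmrn1 difference between GATA1-LSK and LMPP, 1.85 ± 0.51 (adjusted p = 0.0437), was lost on leaving out any of 7 of the 8 arrays, all but GATA1-LSK replicate 2 (highest adjusted p 0.158; 0.00151 to 0.822 over 22 alternatives). LMPP had the lowest mean of the 5 populations in each of these 5 genes. For Mmrn1, however, CMP was as low, at 6.36 against 6.34 in LMPP (difference 0.02, adjusted p = 0.996 by the moderated test). These comparisons share the LMPP arrays. Without LT-HSC replicates 3 to 6, LT-HSC minus LMPP was 4.2 for Mmrn1, 2.81 for Cd9 and 1.21 for F2r (adjusted p = 5.07e-05, 1.17e-05 and 0.00323), and the Treml1 difference passed as well (adjusted p = 3.31e-08). In the order of the means, neighbours often did not differ beyond their spread: for F2r, GATA1-LSK, LT-HSC and CMP lay at 12.84, 12.55 and 12.45 with no call between them, and for Cd9 they lay at 9.01, 8.96 and 8.83.

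Clec1b encodes CLEC-2, the podoplanin receptor of platelets, and Gp6 encodes glycoprotein VI, their collagen receptor. Both are known from mature megakaryocytes and platelets. Gp6 had 1 probe, which was detected on 0 of the 22 arrays and lay between 4.28 and 4.62. Of the 2 Clec1b probes, one was detected on 2 arrays (1 CMP and 1 LT-HSC, at most 5.60) and the other on 1 LT-HSC array. Neither gene was detected on any GATA1+LSK array, which says only that the probes did not exceed the background there. When all 19057 genes were tested without the detection filter, limma called neither in any of 10 comparisons (lowest adjusted p 0.659 for Clec1b and 0.649 for Gp6), and 0 comparisons reached an unadjusted p under 0.05.

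Plek encodes pleckstrin, which protein kinase C phosphorylates when platelets are activated and which is also known from other blood cells. The GATA1+LSK arrays had 6.29, 5.82, 8.34 and 8.53, the CMP arrays 5.81, 5.50, 6.93 and 7.46, the GATA1-LSK arrays 5.81, 5.31, 5.83 and 6.35 and the LMPP arrays 5.92, 5.98, 5.79 and 7.01. LT-HSC ran from 5.09 over 6.02 to 6.63. All populations overlapped. GATA1+LSK minus the other population was 0.82 ± 0.54 for CMP, 1.32 ± 0.50 for LT-HSC, 1.42 ± 0.54 for GATA1-LSK and 1.07 ± 0.54 for LMPP, and no difference passed (adjusted p = 0.509, 0.102, 0.197 and 0.295).

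The Plek calls changed with the slide term. Slide gave F = 30.1 (adjusted p = 9.67e-06), and arrays on slides 3 and 4 were higher than those on slides 1 and 2 in every population. With slide as a fixed block all 4 differences passed, at 0.91 for CMP, 1.48 for LT-HSC, 1.53 for GATA1-LSK and 1.26 for LMPP (adjusted p = 0.0187, 0.000183, 0.0192 and 0.022). Over all alternatives the adjusted p ran from 0.0187 to 0.876 for CMP, 0.000183 to 0.349 for LT-HSC, 0.000296 to 0.539 for GATA1-LSK and 0.000347 to 0.659 for LMPP. With the replicate block the difference from LT-HSC was 1.66 (adjusted p = 0.0017), and without LT-HSC replicates 3 to 6 it was 2.09 (adjusted p = 0.0471). The latter fit left LT-HSC on slide 2 alone, so slide and the choice of arrays cannot be told apart in it. Within slides the difference from CMP was 0.40 on slide 2 and 1.33 on slide 4, and from LT-HSC 0.91 on slide 2 and 2.03 on slide 3.

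**Figure D3:**
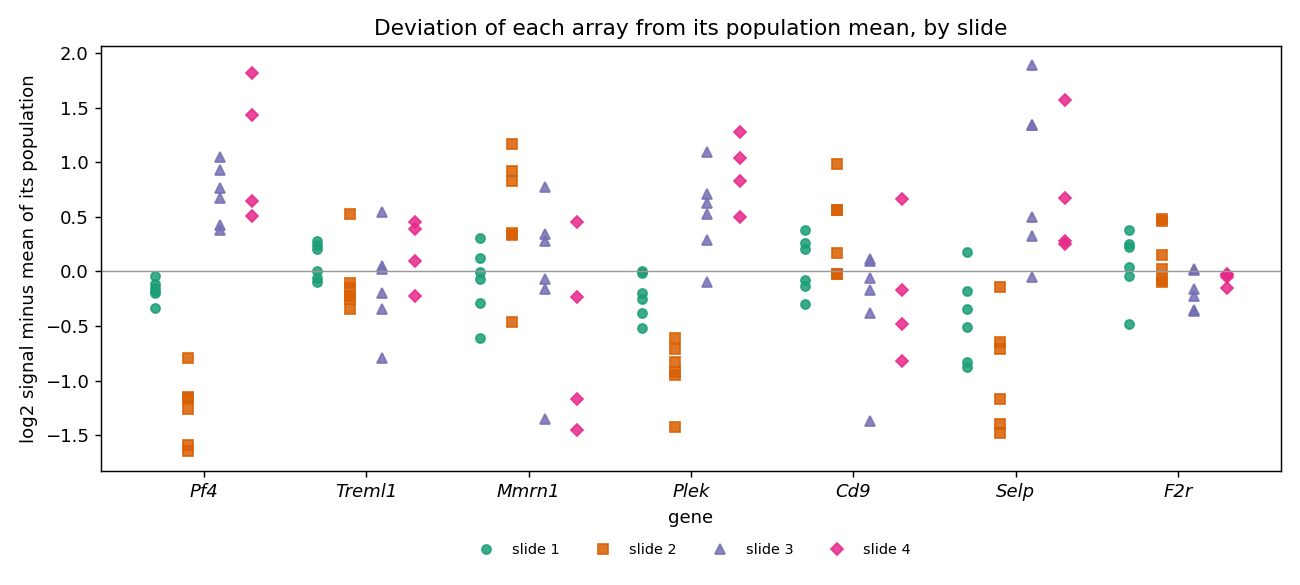
Log2 signal of each array minus the mean of its population (vertical axis) for 7 genes (horizontal axis), with symbol and colour giving the slide. Pf4 lies above 0 on all 6 arrays of slide 3 and all 4 of slide 4, and on 0 of the 6 of slide 2; Plek and Selp lie above 0 on 5, 4 and 0 of them, and Treml1 on 3, 3 and 1.

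Any difference among the 5 populations was called by the moderated F test for 5 of the 8 members (Pf4, Treml1, Mmrn1, Cd9 and F2r), against 22.9% of all genes. A difference among slides, with population in the model, was called for 3 of 8 (Pf4, Plek and Selp), against 36.5% of all genes, so this share is near the background. Mean raw signal per array was 310.9 to 461.9 on slide 2, 122.6 to 208.5 on slide 3, 167.4 to 303.7 on slide 4 and 206.5 to 309.2 on slide 1, and its part in the pattern was not tested. After removal of the population means, log2 signals over the 22 arrays correlated at r = 0.93 for Pf4 with Plek, 0.73 for Plek with Selp and 0.65 for Pf4 with Selp, and at 0.12 for Pf4 with Treml1. These are descriptions over arrays that share slides and populations. Before that removal r was 0.90 for Treml1 with Cd9, 0.87 for Treml1 with F2r, 0.80 for Pf4 with Treml1 and 0.28 for Pf4 with Mmrn1.

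With slide as a fixed block further differences in Pf4 passed that had not done so without it: CMP minus LT-HSC at 0.83, CMP minus GATA1-LSK at 2.50, LT-HSC minus GATA1-LSK at 1.67 and GATA1-LSK minus LMPP at 1.62 (adjusted p = 0.0265, 6.13e-05, 0.00504 and 0.000161). Over all alternatives these p ran from 0.0265 to 0.905, 4.78e-05 to 0.296, 0.000299 to 0.994 and 0.000161 to 0.678. The last rests on LMPP arrays of which 3 of 4 did not detect Pf4. Slide and population are partly aligned, since slide 1 held only GATA1-LSK and LMPP.

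The genes whose log2 signals followed each member most closely over the 22 arrays were found by Pearson's r, leaving out the other members. For Pf4 they were Gp1bb (r = 0.94), which encodes a chain of the von Willebrand factor receptor, Abcb4 (0.92) and P2ry1 (0.92), an ADP receptor gene. For Treml1 they were Gp5 (0.97), another part of that receptor complex, Samd14 (0.95) and Arap3 (0.95). For Mmrn1 they were F11r, Nupr1 and Gstt1 (each 0.91), for Cd9 Apoe (0.89), Gp5 (0.85) and Dnajc12 (0.84), and for F2r Apoe, Tpm1 and Muc13 (0.86 to 0.87). Plek went with Ccdc59 (0.90), Ptbp3 and H2az2 (both 0.89), and Selp with Igf1r (0.85), Catsperz (0.84) and Vkorc1 (0.82). The highest r for Ltbp1 was 0.66. After removal of the population means, Gp5 had r = 0.295 with Treml1 and Gp1bb 0.84 with Pf4. It was -0.149 for Gp5 with Cd9, 0.212 for Nupr1 with Mmrn1 and 0.892 for Ccdc59 with Plek. Like Pf4, Gp1bb varied with the slide: in GATA1+LSK it averaged 9.51 on slide 2 and lay at 10.6 on slide 3 and 10.8 on slide 4. The part of slide in these r was not tested.

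Other platelet receptor genes, from a list of 27 with 17 tested beside the members, were set beside them. Against CMP, 10 were higher and 2 lower, with a median difference of 1.12 (all genes -0.02). Against LMPP, 9 were higher and 2 lower, with a median of 1.77 (all genes -0.04). Against LT-HSC and GATA1-LSK, 5 and 6 were higher, with medians of 0.20 and 0.22; without LT-HSC replicates 3 to 6 the first was 6 higher and 1 lower, with a median of 0.62. In that fit, with LT-HSC on slide 2 alone, Gp1bb was 3.65 ± 0.45 above LT-HSC (adjusted p = 1.9e-05) and P2ry1 3.32 ± 0.51 (adjusted p = 0.000222). Gp1bb was 2.38 ± 0.43 above CMP, 2.71 ± 0.40 above LT-HSC and 3.42 ± 0.43 above GATA1-LSK (adjusted p = 0.000924, 4.97e-05 and 4.86e-05). Gp5 was higher by 1.91 ± 0.29 than in GATA1-LSK (adjusted p = 0.000528), and P2ry1 by 2.40 ± 0.63 (adjusted p = 0.0393). F2rl2, the mouse platelet cofactor for thrombin signalling, averaged 6.62 ± 0.97 in GATA1+LSK (SD, n = 4) and was detected on 0 LT-HSC and 0 LMPP arrays. The fit gave 1.95 ± 0.32 above GATA1-LSK (adjusted p = 0.00112), where it was detected on 1 of 4 arrays, and 1.62 with the undetected values raised to the lowest signal called detected.

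Of 12 other granule cargo and granule membrane genes, 3 were higher and 1 lower against CMP (median 0.40), 2 higher and 1 lower against GATA1-LSK (0.17) and 5 higher against LMPP (0.45). Against LT-HSC limma called 0, with 2 higher and 1 lower at an unadjusted p under 0.05, and without LT-HSC replicates 3 to 6 it called 1 higher and 1 lower. Vwf, encoding von Willebrand factor, had, like Mmrn1, its highest means in LT-HSC and GATA1+LSK, with no call between these populations. It averaged 11.21 ± 0.84 in GATA1+LSK, 8.82 ± 0.44 in CMP, 11.62 ± 0.24 in LT-HSC, 8.33 ± 0.11 in GATA1-LSK and 5.66 ± 0.38 in LMPP (SD, n = 4, 4, 6, 4 and 4). GATA1+LSK exceeded CMP in Vwf by 2.39 ± 0.31 and GATA1-LSK by 2.89 ± 0.31 (adjusted p = 1.89e-05 and 6.39e-06), and was -0.41 ± 0.28 relative to LT-HSC (adjusted p = 0.471; -0.66 ± 0.40 without LT-HSC replicates 3 to 6, adjusted p = 0.302). Pdgfb, a growth factor gene, was higher by 2.19 ± 0.34 than in CMP (adjusted p = 0.000168) and at 7.99 and 8.01 in GATA1+LSK and LT-HSC. F13a1, encoding a subunit of coagulation factor XIII that monocytes also make, went the other way: it was not detected on any GATA1+LSK array and averaged 9.91 ± 0.47 in CMP. Cd63, a granule tetraspanin gene, was higher than in LMPP by 1.93 ± 0.24 (adjusted p = 5.44e-06).

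**Figure D4:**
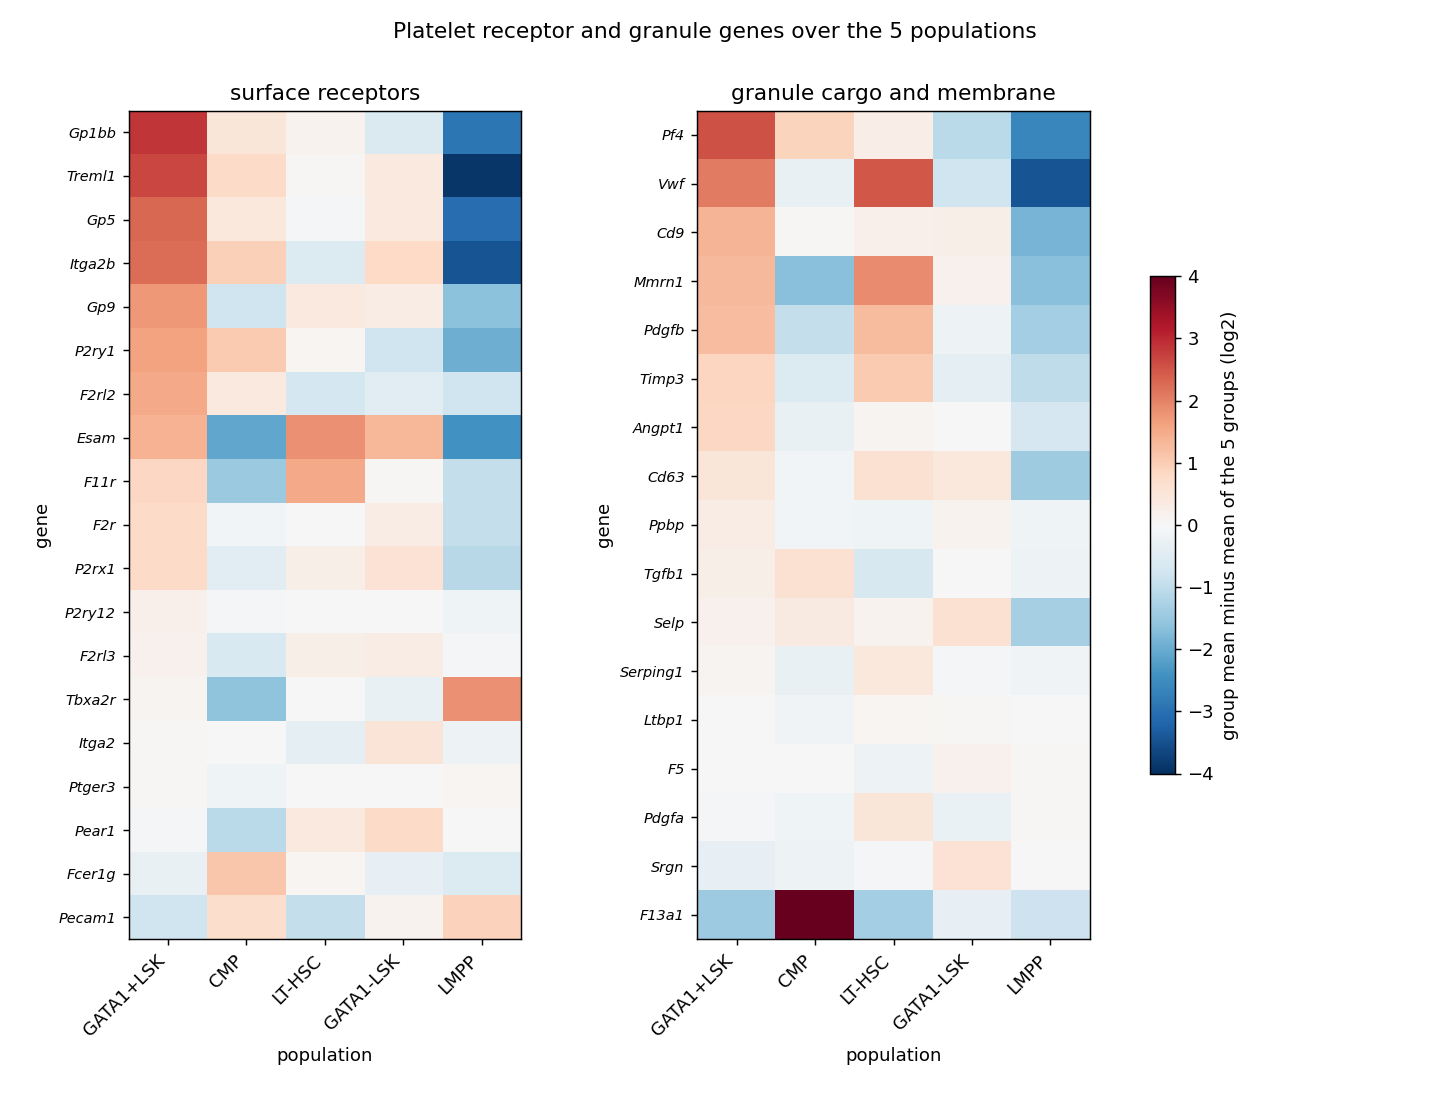
Mean log2 signal of each population minus the mean of the 5 populations (colour, from -4 to 4) for tested genes of the platelet receptor list (left) and the granule list (right). Treml1 and Pf4 are highest in GATA1+LSK, Mmrn1 and Vwf are high in both GATA1+LSK and LT-HSC, and F13a1 is high in CMP.

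Platelet signalling and granule formation were followed by a list each. Of 19 signalling genes beside Plek, 2 were higher than in GATA1-LSK, namely Fyb (1.28 ± 0.35, adjusted p = 0.0494) and Rap1b (0.96 ± 0.23, adjusted p = 0.0213), which encode an adaptor and a small GTPase of integrin activation. Against LMPP the same 2 were higher, while Rasgrp2 and Vav3 were lower (-1.91 ± 0.44 and -1.19 ± 0.20, adjusted p = 0.00591 and 0.000252). Of 16 genes of granule formation and release, 4 were higher and 1 lower against LMPP, among them Stx11 (2.99 ± 0.44), Rab38 (1.20 ± 0.35) and Vamp8 (1.14 ± 0.29), with Hps3 lower (-1.14 ± 0.32; adjusted p = 4.81e-05, 0.0316, 0.0135 and 0.0258). Stx11, a syntaxin gene of platelet secretion, was also higher than in GATA1-LSK (1.96 ± 0.44, adjusted p = 0.0143). Of 12 megakaryocyte transcription factor genes other than Gata1, 4 were higher and 1 lower than in LMPP, with Gata2 at 2.80 ± 0.33, Gfi1b at 2.36 ± 0.35, Tal1 at 1.20 ± 0.22 and Ets1 at -1.93 ± 0.60 (adjusted p = 3.3e-06, 6.23e-05, 0.000712 and 0.0491). Against GATA1-LSK limma called 0 of these 12, with 1 higher and 1 lower at an unadjusted p under 0.05.

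Of 7 tested markers of mature megakaryocytes and platelets, which include Gp5 and Gp9 of the receptor list and Ppbp of the granule list, 5 were higher in GATA1+LSK than in CMP, 3 than in LT-HSC, 2 than in GATA1-LSK and 3 than in LMPP. Their summed linear signal lay between 6370 and 7120 on the GATA1+LSK arrays, 1580 and 2110 in CMP, 3480 and 4630 in LT-HSC, 3320 and 4270 in GATA1-LSK and 1180 and 1700 in LMPP. Gp9 averaged 11.73 ± 0.055 in GATA1+LSK and 10.30 ± 0.36 in GATA1-LSK (SD, n = 4 each), a difference of 1.43 ± 0.24 (adjusted p = 0.001). Tubb1, a tubulin gene of platelets, was 1.91 ± 0.40 above CMP (adjusted p = 0.00355) and 1.14 ± 0.40 above GATA1-LSK, which did not pass (adjusted p = 0.152), and was not detected on any LMPP array. Ppbp, a chemokine gene abundant in platelets, was detected on 2 of the 4 GATA1+LSK arrays (4.42 to 5.52), 2 of the 4 GATA1-LSK arrays, and on no CMP, LT-HSC or LMPP array. Pf4 was between 8.35 and 11.75 on the same GATA1+LSK arrays. The part of mature megakaryocytes or platelets in the members' levels was not tested.

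Markers of other lineages also differed between the populations. Those of basophils, mast cells and eosinophils summed to 12600 to 28600 on the GATA1+LSK arrays, 1340 to 2850 in CMP, 3500 to 18000 in LT-HSC, 757 to 1370 in GATA1-LSK and 199 to 291 in LMPP, with 3, 3, 5 and 6 of 7 higher in GATA1+LSK. Erythroid markers summed to 2860 to 8140 in GATA1+LSK, 1540 to 1950 in CMP, 1190 to 2430 in LT-HSC, 473 to 622 in GATA1-LSK and 153 to 197 in LMPP, with 2, 3, 5 and 5 of 5 higher. Mature neutrophil markers summed to 239 to 722 in GATA1+LSK, 178 to 223 in CMP, 191 to 4660 in LT-HSC, 172 to 377 in GATA1-LSK and 182 to 312 in LMPP. Endothelial cells also make P-selectin, multimerin and von Willebrand factor; of 9 endothelial markers 4 were tested, their sum lay between 144 and 328 in GATA1+LSK and 322 and 609 in LT-HSC, Cldn5 was not detected on any GATA1+LSK array, and Cdh5, Plvap, Stab2, Sox17 and Lyve1 were detected on too few arrays to be tested. Monocyte markers summed to 396 to 604 in GATA1+LSK and 730 to 983 in CMP, and lymphocyte markers to 6240 to 9580 in GATA1+LSK and 6310 to 9030 in CMP. The part of these cells in the members' levels was not tested.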

How the data were processed

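RNA of sorted populations was extracted, amplified to biotin-labelled cRNA and hybridised to Illumina mouse bead arrays, per the labels' protocols. The deposited scanner table held a linear intensity per probe, with values below 0 that show background had been subtracted, and a detection p-value per probe, as deposited. A second deposited table held the authors' quantile-normalised intensity, whose rank correlation with the scanner values was 1 in each array; it served as an alternative. BeadStudio is named per the submitters' processing notes, and its version is not given in the sources used here. Genes came from the platform annotation: of 45281 probes 34885 had 1 gene, 18 several and 10378 none, and no gene was named from a probe with several.

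Intensities were corrected with neqc of limma 3.58.1 in R 4.3.3 (normexp with negative controls inferred from the detection p, offset 16, quantile normalisation), giving log2 values computed from the authors' intensities. Each gene took its brightest probe detected (p under 0.05) on at least 4 arrays. A group-means model over all 22 arrays, empirical Bayes moderation and Benjamini-Hochberg adjustment over 11118 genes gave the calls at an adjusted p of 0.05. The procedure was tested on simulated data for GATA1+LSK against GATA1-LSK over 11118 genes. It called 40.9% of 93 genes changed by 1 on the log2 scale and 91.6% of 107 changed by 2, with 4 false calls. The simulated noise was independent between arrays and held no slide effect. False calls that slide could give in the real comparison are therefore not measured by it. Figures were drawn with matplotlib 3.10.9.

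The members and the gene lists were chosen with earlier results of these data known. Of each list up to 4 other genes were named, those called in GATA1+LSK against GATA1-LSK with the largest difference, filled up from the calls against LMPP. For each member the 3 genes of highest r were named. Other named genes (Ppbp, S100a8, Mpo, Elane, Flt3, Kit and undetected markers) were chosen after their values were seen. Replicate numbers were taken to pair samples where every same-numbered pair correlated above 0.1 in its deviations from the population means. This held for GATA1+LSK with CMP (r = 0.187 to 0.584, 3 of 4 pairs on 1 slide) and with LT-HSC (0.24 to 0.641). It also held for CMP with LT-HSC (0.174 to 0.582) and with LMPP (0.327 to 0.473), and LT-HSC with LMPP (0.111 to 0.484). Arrays of different numbers were not compared. For GATA1+LSK with CMP, pairs on 1 slide had 0.359 to 0.584 and the other pair 0.187. Pairing and slide can therefore not be told apart by this rule. Alternatives changed the background correction, normalisation, detection filter, probe rule, slide and replicate blocks, variance model and arrays used; leaving out slide 2, slide 3 or LT-HSC replicates 3 to 6 and raising undetected values of Pf4 and F2rl2 to the lowest detected signal were added after seeing the data.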

Additional observations from a re-analysis of the deposited data

Results flagged for a closer look

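In 3 of the 40 groups of arrays (8 genes in 5 populations) the highest array stood apart from the others by Dixon's criterion at the 95% level, which chance alone meets in about 0.05 of groups. Treml1 was 11.5 in GATA1+LSK replicate 4, where the other 3 arrays lay between 10.9 and 11. Plek was 7.01 in LMPP replicate 4, where the others lay between 5.79 and 5.98. Cd9 was 9.4 in GATA1-LSK replicate 3, where the others lay between 8.85 and 8.93.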

How the results depend on the processing

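Differences of single members from GATA1+LSK, and those called between other populations, were followed under the alternatives. Of these values 960 were counted as unchanged, 90 lost the call, 22 gained it and 9 were counted as changed in sign. These 9 were of Selp and none was called: leaving out 1 array its difference ran from -0.645 to 0.324 against CMP, -0.425 to 0.515 against LT-HSC and -0.894 to 0.182 against GATA1-LSK, and without slide 2 it was 0.361 against GATA1-LSK. Differences within 1 slide have no p-value. They were counted as unchanged where they lay within the spread of the arrays, whatever their sign if the main difference was not called. Thus Mmrn1 against LT-HSC, at -0.575 in the main fit, was 0.0137 on slide 3 and counted as unchanged. Another 7 differences within 1 slide lay outside that spread. Of the 25 differences between other populations that were not called, 14 changed sign under at least 1 alternative, 0 of them as a call. The number of members called in GATA1+LSK against CMP was 0 under median scaling (3 at an unadjusted p under 0.05) and 2 with only the arrays of those populations. Against LT-HSC it was 1 with only those arrays and 2 without slide 3. Against GATA1-LSK it was 4 with the replicate block, though the replicate numbers did not meet the pairing rule there. The number for CMP against LT-HSC was 1 under median scaling, the slide as a random block, the replicate block, only those arrays, without slide 3 and without LT-HSC replicates 3 to 6. For CMP against GATA1-LSK it was 0 without the detection filter and without slide 3 (1 higher and 1 lower at an unadjusted p in both), 2 with slide as a fixed or random block, the replicate block or only those arrays, and 3 without slide 2. For LT-HSC against GATA1-LSK it was 0 under median scaling, without the detection filter and with slide as a random block (2, 1 and 2 at an unadjusted p), and 2 without slide 2. Against LMPP, median scaling gave 2 for CMP, 3 for LT-HSC and 1 for GATA1-LSK. Leaving out 1 array gave 2 to 4 members for GATA1+LSK against CMP and against LT-HSC, 2 against GATA1-LSK, 5 against LMPP, 1 to 2 for CMP against LT-HSC, 0 to 1 for CMP against GATA1-LSK and for LT-HSC against GATA1-LSK, 3 to 4 for CMP and GATA1-LSK against LMPP, and 5 for LT-HSC against LMPP. The F test called 5 members throughout. The cause of these changes was not tested, beyond the smaller number of arrays where arrays were left out.

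Over all genes, 723 calls in GATA1+LSK against CMP became 346 under median scaling (30.6% higher, against 53.7%), 1429 with slide as a fixed block, 1295 as a random block, 1105 with the replicate block and 479 with only those arrays. Against LT-HSC 1168 became 498 under median scaling and 634 with only those arrays. Against GATA1-LSK 305 became 78 under median scaling, 161 with only those arrays, 572 with the replicate block, 1705 without slide 2, and 203, 181, 175, 180 and 200 without GATA1+LSK replicate 3 or 4 or GATA1-LSK replicate 1, 2 or 3. Against LMPP 953 became 447 under median scaling and 2191 without slide 2. Median scaling also gave 1535 in place of 2390 for CMP against LT-HSC, 348 of 853 for CMP against GATA1-LSK (1370 without slide 3), 302 of 655 for CMP against LMPP and 1257 of 2546 for the F test. LT-HSC against GATA1-LSK gave 147 to 1653 in place of 606 (284, 315 and 369 without GATA1-LSK replicate 1, 2 or 3), LT-HSC against LMPP 815 to 2853 in place of 1798 and GATA1-LSK against LMPP 176 to 671 in place of 388. The replicate block changed further member calls in comparisons that met the pairing rule only where given beside the results. Signal near background limits Ltbp1, Clec1b and Gp6.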
